A study of Mus musculus with 13 samples.

Results

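The genes of sphingosine-1-phosphate (S1P) signalling were followed through cuprizone demyelination and recovery in bulk RNA-seq of the mouse brain. They were 9 genes chosen by symbol from the deposited gene annotation, of 55401 genes in the table: the receptors S1pr1, S1pr2, S1pr3, S1pr4 and S1pr5, the kinases Sphk1 and Sphk2, the lyase Sgpl1 and the exporter Spns2. No symbol was repeated among them, so no measured value decided which entry was used. Of the 9 genes, 8 were among the 14985 genes with enough counts to be tested, and S1pr4 was not. The mice were males, 6 to 8 weeks old by the labels, and wild-type C57BL/6J in the study's methods, which give an older age. The 4 cuprizone (CPZ) mice ate chow with 0.3% cuprizone, a copper chelator that kills mature oligodendrocytes (MOL), for 4 weeks. The 4 recovery (RCV) mice ate the same diet for 4 weeks and then control chow for 2 weeks, and the 5 control (CTL) mice ate control chow for 6 weeks. Each mouse gave 1 library, from a snap-frozen hemisphere. CPZ brains were taken at week 4 and CTL and RCV brains at week 6, so that diet and time of collection cannot be told apart between CPZ and the other groups. The labels' protocol gives smaller groups than the libraries themselves show.

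S1P is a lipid made inside cells when Sphk1 or Sphk2 phosphorylates sphingosine. Spns2 carries it out of the cell, Sgpl1 cleaves it irreversibly in the endoplasmic reticulum, and the receptors, which couple to different heterotrimeric G proteins, read it at the cell surface. In the brain S1pr1 is known from astrocytes and endothelium, S1pr3 from astrocytes and S1pr5 from oligodendrocytes, and drugs that bind S1P receptors are used in multiple sclerosis.

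Library totals ran from 4605100 to 8197289 estimated counts, with 19980 to 21565 genes detected and 3.76 to 5.07% of counts from mitochondrial genes. Library values below are counts scaled to a common library size (CPM) unless TPM, which also corrects for gene length, is named. Changes are log2 differences from an edgeR quasi-likelihood fit of all 13 libraries, with their standard errors (SE), and p values were adjusted over all genes tested, with 0.05 as the threshold for a call. The comparisons share groups (those of CPZ and of RCV with CTL use the same CTL libraries), so their values are given side by side only. A hemisphere holds every brain cell type, and fewer cells of a type cannot be told apart from less of an RNA per cell.

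In CPZ against CTL, S1pr3, S1pr2 and Sgpl1 were higher and S1pr5 was lower. These were 4 of the 8 genes tested, where 10.2% of all genes were called (7.66% as higher and 2.5% as lower). The same 4 genes had CPZ and CTL libraries that did not overlap in CPM, a separation found for 13.1% of all genes. In RCV against CTL edgeR called none of the 8 genes, nor did DESeq2 or limma-voom, where edgeR called 0.374% of all genes. There 2 of the 8, Sphk2 and Sgpl1, had an unadjusted p under 0.05, as did 6.2% of all genes. The same 2 had libraries that did not overlap in CPM, as did 2.9% of all genes. In CPZ against RCV, S1pr1, S1pr3 and Sgpl1 were higher and S1pr5 and Spns2 were lower, which made 5 of 8 where 7.01% of all genes were called (5.13% as higher and 1.88% as lower). The libraries of these 5 did not overlap in CPM either, a separation found for 13.2% of all genes. In TPM those of Sgpl1 did overlap. The median log2 difference of the 8 genes was 0.06, -0.03 and 0.28 in these comparisons, beside medians of -0.02, -0.0044 and -0.0066 over all genes.

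**Figure D1:**
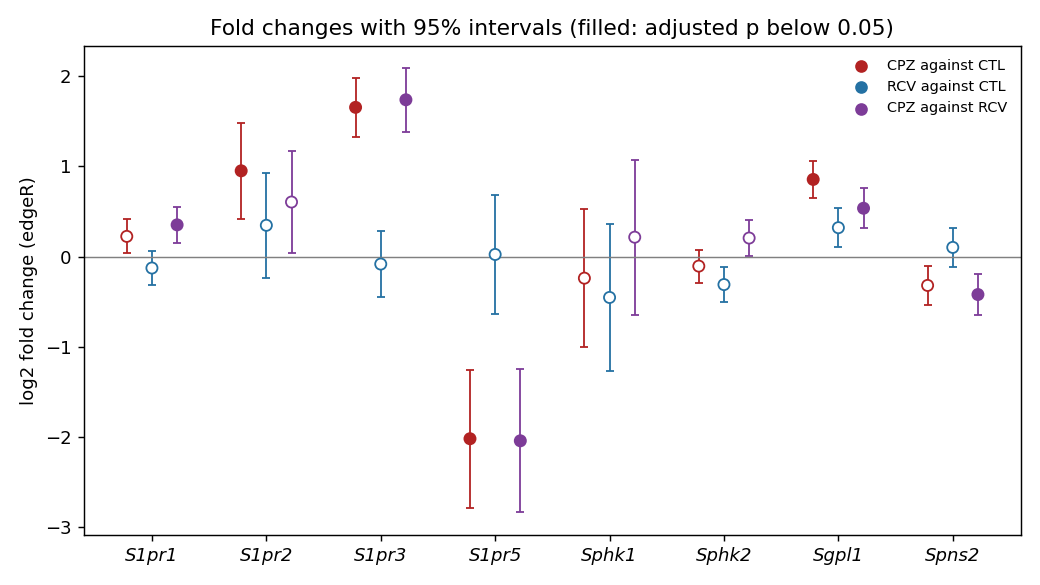
Log2 difference of each tested gene in the 3 comparisons, with 95% intervals from the edgeR fit. Filled points mark an adjusted p under 0.05. S1pr3 sits at 1.65 and 1.74 in the comparisons of CPZ with CTL and RCV and S1pr5 at -2.02 and -2.04, while neither is called in RCV against CTL.

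The promoters of the 4 genes called in CPZ against CTL are shown because the genes moved in different directions. Each sequence is the 250 bases before the gene's start in RefSeq on GRCm38.p6, read 5′ to 3′ on the gene's strand. Capitals mark the GC box GGGCGG, or CCGCCC where it lies on the opposite strand.
S1pr2, chr9:20976794-20977043, minus strand: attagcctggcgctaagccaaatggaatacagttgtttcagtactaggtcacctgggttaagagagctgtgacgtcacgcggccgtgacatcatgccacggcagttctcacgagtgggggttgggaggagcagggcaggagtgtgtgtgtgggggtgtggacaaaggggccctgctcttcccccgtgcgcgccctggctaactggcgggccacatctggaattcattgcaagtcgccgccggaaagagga
S1pr3, chr13:51408368-51408617, plus strand: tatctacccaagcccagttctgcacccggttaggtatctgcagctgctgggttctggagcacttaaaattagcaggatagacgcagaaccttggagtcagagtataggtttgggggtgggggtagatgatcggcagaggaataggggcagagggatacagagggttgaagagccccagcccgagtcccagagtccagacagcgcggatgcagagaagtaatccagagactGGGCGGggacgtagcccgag
Sgpl1, chr10:61147685-61147934, minus strand: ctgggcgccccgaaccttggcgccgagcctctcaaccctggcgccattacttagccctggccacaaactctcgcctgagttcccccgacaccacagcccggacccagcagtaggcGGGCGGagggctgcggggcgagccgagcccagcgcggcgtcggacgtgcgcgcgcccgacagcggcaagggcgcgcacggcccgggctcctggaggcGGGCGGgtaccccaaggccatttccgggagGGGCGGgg
S1pr5, chr9:21248444-21248693, minus strand: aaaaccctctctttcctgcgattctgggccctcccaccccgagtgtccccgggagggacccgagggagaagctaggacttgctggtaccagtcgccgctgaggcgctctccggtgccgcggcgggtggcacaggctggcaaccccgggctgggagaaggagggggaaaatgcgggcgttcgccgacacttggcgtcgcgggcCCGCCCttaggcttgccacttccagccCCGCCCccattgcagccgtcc
The Sgpl1 window held 3 GC boxes, which began 135, 38 and 8 bases before the start. S1pr5 held 2, both on the opposite strand, at 48 and 21 bases, S1pr3 held 1 at 20 bases and S1pr2 held none. A GC box was present in 32.7% of 32851 promoter windows of the same length. No match was found in these 4 windows on either strand for the CCAAT box (CCAAT, in 33.8% of all windows), the TATA box (TATAAA, 12.4%), a STAT motif (TTCNNNGAA, 7.02%), an AP-1 motif (TGANTCA, 6.75%), an E-box (CACGTG, 6.02%) or a SOX motif (ACAAT, 27.7%). Their GC content was 59.2% for S1pr2, 56.4% for S1pr3, 74.8% for Sgpl1 and 69.2% for S1pr5, beside a median of 52.4% over all windows. A match in letters describes the sequence and was not tested as a binding site.

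S1pr1 had the most abundant transcript of the 9 genes. Its mean level in CTL was 81.9 TPM, followed by Spns2 at 38.7, Sgpl1 at 25.3, Sphk2 at 18.4 and S1pr5 at 15.9 TPM. S1pr3 was at 5.11, Sphk1 at 2.42, S1pr2 at 1.09 and S1pr4 at 0.64 TPM. The S1pr2 mean rested on CTL 3 and was 0.67 TPM without it. In this order the CTL libraries of Sphk2 and S1pr5 overlapped, as did those of Sphk1 with S1pr2 (through CTL 3 alone) and of S1pr2 with S1pr4, while the other neighbours did not. In CPZ the order read S1pr1 (93.7 TPM), Sgpl1 (43.3), Spns2 (28.5), Sphk2 (16.0), S1pr3 (15.8), S1pr5 (3.79), Sphk1 (2.07), S1pr2 (1.71) and S1pr4 (0.593). There S1pr3 stood above S1pr5 in every CPZ library, the reverse of every CTL and RCV library. The ratio of S1pr3 to S1pr5 in TPM was 0.25 to 0.611 in CTL, 2.34 to 5.97 in CPZ and 0.219 to 0.4 in RCV.

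**Figure D2:**
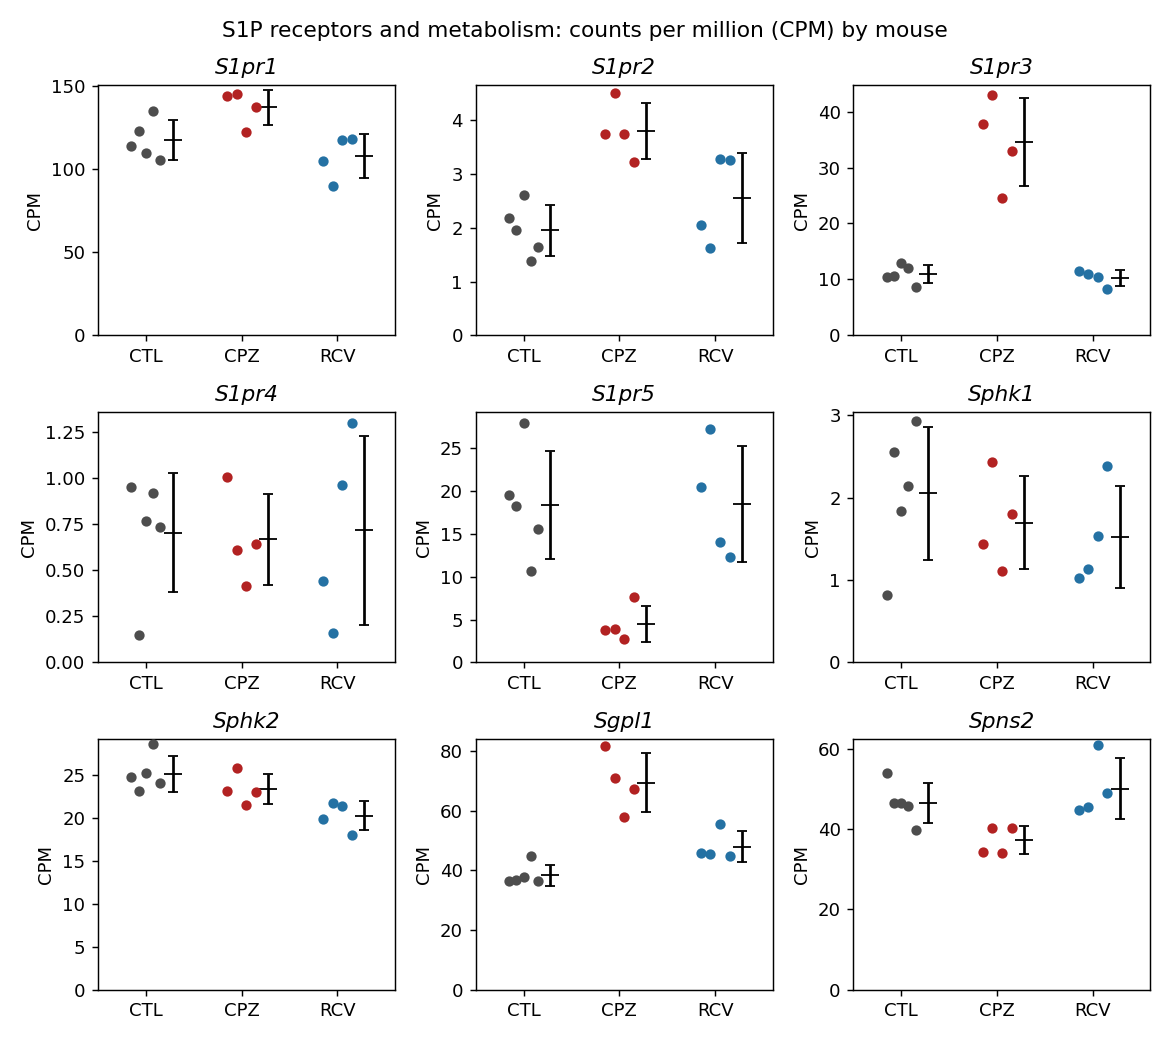
CPM of each of the 9 genes by group, with 1 point per mouse and the mean ± SD of each group. CPZ points of S1pr3 (24.6 to 43.0) lie above all CTL and RCV points, and those of S1pr5 (2.77 to 7.62) lie below them.

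S1pr3, a receptor that couples to several G protein classes, had the largest rise of the 8 tested genes in CPZ. The gene (ENSMUSG00000067586.4) lies on chromosome 13 of mm10, from 51408639 to 51422797 on the plus strand. The 5 CTL libraries read 10.5, 10.7, 12.9, 12.1 and 8.62 CPM, the 4 CPZ libraries 37.7, 43.0, 24.6 and 32.9 CPM, and the 4 RCV libraries 11.4, 11.02, 10.4 and 8.24 CPM. Every CPZ library was above every library of the other groups, and the CTL and RCV ranges overlapped. S1pr3 was 3.15-fold higher in CPZ than in CTL (log2 difference 1.65, SE 0.152, adjusted p = 2.13e-06) and 3.34-fold higher than in RCV (1.74, SE 0.167, adjusted p = 6.17e-05). In RCV against CTL its log2 difference was -0.08 with a 95% interval from -0.45 to 0.29 (adjusted p = 0.996). As a share of the CPZ difference from CTL, the distance of the RCV libraries from CTL was -0.05 ± 0.127 (SD, n = 4) on the log2 scale. This SD leaves out the spread of the CTL and CPZ mice, whose means were held fixed. The exons of S1pr3 overlap those of Gm32834 on the opposite strand, which had 0 to 12 counts, and whether counting used strand is not given in the sources used here.

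Markers of glia moved in the same comparison as S1pr3. All 14 microglial markers were called as higher in CPZ against CTL, as were 6 reactive astrocyte markers and 3 of 9 general astrocyte markers. Of all genes, 7.66% were called as higher there. The remaining reactive marker, Lcn2, was also called but passed the filter only through its CPZ libraries. Summed microglial markers came to 417 to 501 CPM in CTL, 1491 to 3138 in CPZ and 641 to 885 in RCV, and reactive astrocyte markers to 222 to 291, 1149 to 1499 and 711 to 1074 CPM. No marker of these lists was at 0 in all libraries. In RCV both sums stayed above every CTL library. Against CTL, 2 of the 14 microglial and 3 of the 7 reactive astrocyte markers were called as higher there, where 0.374% of all genes were called. In RCV, Tmem119 (log2 difference -0.06) and P2ry12 (0.01) were the only microglial markers that overlapped CTL as S1pr3 did. They were picked out after their values were seen. The other microglial markers lay above every CTL library in RCV, as did the reactive astrocyte markers except Cd44. The part of these cells in the S1pr3 result was not tested.

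S1pr5, the receptor known from oligodendrocytes, had the largest fall among them. The gene (ENSMUSG00000045087.8) lies on chromosome 9 of mm10, from 21242912 to 21248443 on the minus strand. Its CTL libraries read 19.6, 18.3, 27.97, 10.7 and 15.6 CPM, its CPZ libraries 3.75, 3.89, 2.77 and 7.62 CPM, and its RCV libraries 20.5, 27.2, 14.1 and 12.4 CPM. The highest CPZ library was below the lowest of the other groups, and RCV spanned nearly the range of CTL. S1pr5 was 4.06-fold lower in CPZ than in CTL (log2 difference -2.02, SE 0.353, adjusted p = 0.00179) and 4.13-fold lower than in RCV (-2.04, SE 0.368, adjusted p = 0.00468). Its difference between RCV and CTL was 0.02 on the log2 scale, with a 95% interval from -0.64 to 0.69 (adjusted p = 0.999). S1pr5 varied more within a group than S1pr3 did, with a ratio of highest to lowest CPM of 2.61 in CTL, 2.75 in CPZ and 2.2 in RCV, against 1.5, 1.75 and 1.39.

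The 12 markers of MOL were lower in CPZ together with S1pr5. All 12 were called against CTL, where 2.5% of all genes were called as lower. Against RCV 11 were called, all but Ermn (adjusted p = 0.101), where 1.88% of all genes were called as lower. In CPM the CPZ libraries of Mog, Ermn and Klk6 overlapped CTL, unlike those of S1pr5. The 12 markers summed to 2524 to 4789 CPM in CTL, 1137 to 1856 in CPZ and 3416 to 5792 in RCV, and none was at 0 in all libraries. Log2 differences of the 12 markers in CPZ against CTL ran from -2.43 for Mal to -0.61 for Cnp, with a median of -1.54, and 1 of the 12 was lower than S1pr5. Within each group the libraries stood in the same order by S1pr5 as by the mean log2-CPM of the MOL markers: CTL 4 was lowest and CTL 3 highest, CPZ 3 lowest and CPZ 4 highest, and RCV 4 lowest and RCV 2 highest. S1pr5 minus the mean of these markers was -2.48 ± 0.192 among the 5 CTL, -2.94 ± 0.269 among the 4 CPZ and -2.56 ± 0.221 among the 4 RCV mice (mean ± SD, log2 scale). The SD of S1pr5 itself was 0.496, 0.577 and 0.511, larger than that of the difference in each group. These values are a description over 13 libraries, and within a library S1pr5 and the markers share 1 depth. The part of oligodendrocyte number in the fall of S1pr5 was not tested. S1pr5 is also known from NK cells. The 11 lymphocyte and NK markers summed to 1.93 to 6.92 CPM over all libraries. Of these 1 passed the filter, Trbc2, at a mean of 3.40 CPM in CTL and 3.67 CPM in CPZ. The part of NK cells in the S1pr5 result was not tested.

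**Figure D3:**
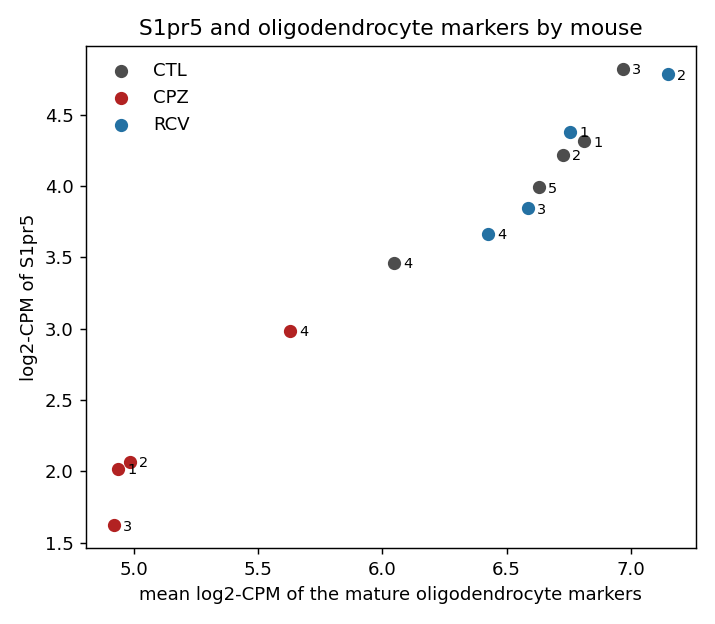
S1pr5 against the mean of 12 markers of mature oligodendrocytes, both in log2-CPM, with 1 point per mouse coloured by group. The CPZ points sit at the low end of both axes, and the libraries of each group keep the same order on both.

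S1pr2, a receptor that also couples to several G protein classes, was near the lower limit of what these libraries measure. It had 9 to 37 estimated counts per library. CTL libraries read 2.17, 1.95, 2.61, 1.38 and 1.65 CPM, CPZ libraries 3.75, 4.497, 3.75 and 3.23 CPM, and RCV libraries 2.05, 1.62, 3.27 and 3.25 CPM. CPZ lay above all of CTL, while RCV reached into the CPZ range. S1pr2 was 1.93-fold higher in CPZ than in CTL (log2 difference 0.95, SE 0.25, adjusted p = 0.021), and the call was lost without CTL 4 (adjusted p = 0.0511) or without CPZ 2 (adjusted p = 0.0827). In TPM the CPZ and CTL libraries overlapped and limma gave an adjusted p of 0.622 at a log2 difference of 0.44. The log2 difference from RCV was 0.60 (adjusted p = 0.221), and that of RCV from CTL was 0.35 (adjusted p = 0.975). S1pr2 has 4 annotated transcripts, and its ratio of estimated counts to TPM ran from 2.91 to 23.2 across libraries.

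S1pr1, the most abundant of the receptors, differed by at most 1.28-fold between any groups. CTL libraries read 114, 123, 110, 135 and 105 CPM, CPZ libraries 144, 145, 122 and 137 CPM, and RCV libraries 105, 89.9, 118 and 118 CPM. The CPZ range overlapped that of CTL and lay above that of RCV. The log2 difference was 0.22 in CPZ against CTL (SE 0.089, adjusted p = 0.141), -0.13 in RCV against CTL (adjusted p = 0.956) and 0.35 in CPZ against RCV (SE 0.0949, adjusted p = 0.0342). The last call was lost when CPZ 1, CPZ 2, CPZ 4, RCV 1 or RCV 2 was left out, with adjusted p of 0.0672 to 0.105, and on TPM with limma, with adjusted p of 0.0871 to 0.144. Of 11 endothelial markers none was called in CPZ against RCV or CTL, where 7.01% and 10.2% of all genes were. In RCV against CTL 1 was, Cldn5 (-0.68, adjusted p = 0.0263), where 0.374% of all genes were. The 11 summed to 308 to 353 CPM in CTL, 297 to 328 in CPZ and 298 to 320 in RCV. Of the 9 general astrocyte markers 3 were called as higher in CPZ against CTL, where 7.66% of all genes were. In CPZ against RCV 1 was, Aldh1l1 (0.38, adjusted p = 0.012), where 5.13% of all genes were. In RCV against CTL Aqp4 was higher (0.44, adjusted p = 0.0384). The part of either cell type in the S1pr1 result was not tested.

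S1pr4, the receptor of lymphoid cells, had 1 to 7 counts in a library and 0.14 to 1.18 TPM. No library reached the CPM of 1.49 that the filter asked for in at least 4 libraries, and it was not tested. Without the filter its log2 difference in CPZ against CTL was -0.06 with an SE of 0.545, so that only a large difference would have been detectable at this depth. By contrast S1pr2 reached it in 4 of 5 CTL, 4 of 4 CPZ and 4 of 4 RCV libraries, and Sphk1 in 4, 2 and 2.

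The makeup of the receptor transcripts differed by group while S1pr1 remained the main one. S1pr1 made 78.3% ± 5.73 (SD, 5 mice) of the summed TPM of the 5 receptors in CTL, 81.2% ± 2.39 (SD, 4 mice) in CPZ and 76.0% ± 5.96 (SD, 4 mice) in RCV. S1pr5 made 15.2% ± 4.85 in CTL, 3.28% ± 1.49 in CPZ and 16.5% ± 6.86 in RCV, and S1pr3 made 4.87% ± 0.433, 13.5% ± 1.85 and 4.89% ± 0.851. Thus S1pr3 took the second place in CPZ and S1pr5 in the other groups. The receptors summed to 105 ± 6.91 TPM in CTL, 116 ± 11.8 in CPZ and 96.7 ± 5.16 in RCV. With CPM per kilobase in place of TPM the S1pr5 shares were 15.1%, 3.24% and 16.4%.

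**Figure D4:**
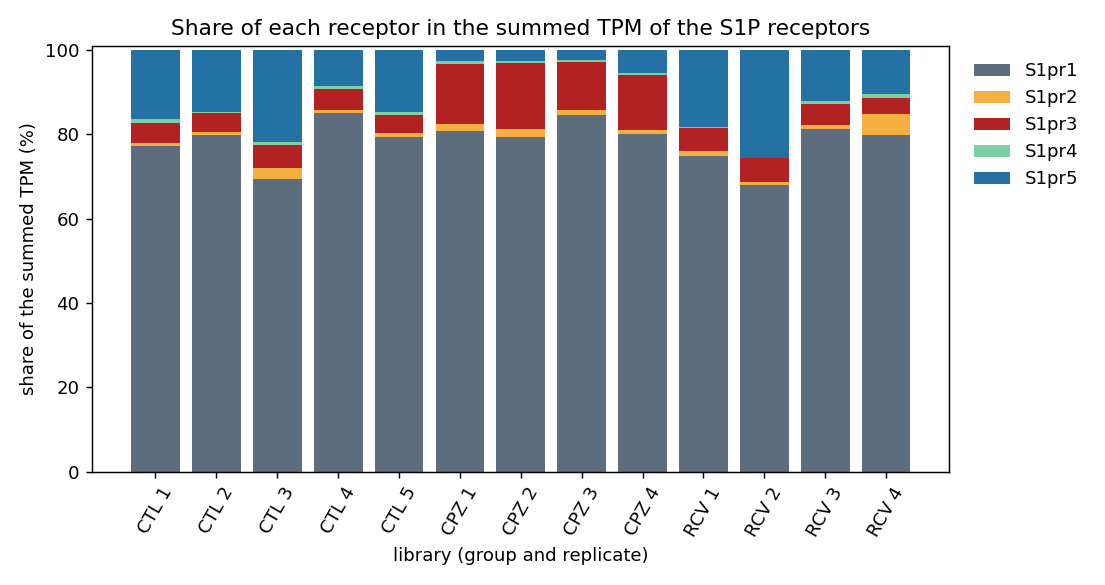
Share of each receptor in the summed TPM of the 5 S1P receptors, in percent, as a stacked bar for each mouse. S1pr3 is at 4.87% in CTL, 13.5% in CPZ and 4.89% in RCV on average, and S1pr5 at 15.2%, 3.28% and 16.5%.

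Sgpl1, the lyase that degrades S1P, rose in CPZ and lay between the other groups in RCV. The gene (ENSMUSG00000020097.14) lies on chromosome 10 of mm10, from 61098642 to 61147703 on the minus strand. CTL libraries read 36.3, 36.6, 37.8, 44.6 and 36.3 CPM, CPZ libraries 81.5, 70.9, 57.9 and 67.3 CPM, and RCV libraries 45.7, 45.5, 55.6 and 44.7 CPM. In CPM CPZ stood above both groups, and RCV stood above CTL by a margin of less than 0.1 CPM between CTL 4 and RCV 4. In TPM RCV overlapped both CTL and CPZ, with RCV 3 at 39.66 TPM and CPZ 3 at 36.66 TPM. Sgpl1 was 1.81-fold higher in CPZ than in CTL (log2 difference 0.86, SE 0.0984, adjusted p = 1.74e-05) and 1.45-fold higher than in RCV (0.54, SE 0.104, adjusted p = 0.00467). On log2(TPM + 1) with limma the latter was not called (0.40, adjusted p = 0.182). RCV was 0.32 above CTL on the log2 scale (95% interval 0.103 to 0.536), with an unadjusted p of 0.00658 and an adjusted p of 0.354 in edgeR. As a share of the CPZ difference from CTL on the log2 scale, the distance of the RCV libraries from CTL was 0.376 ± 0.175 (SD, n = 4). It ran from 0.265 to 0.637, with RCV 3 highest. This SD leaves out the spread of the CTL and CPZ mice, whose means were held fixed. The microglial and reactive astrocyte marker sums given beside S1pr3 were likewise above CTL in CPZ and RCV, and their part in the Sgpl1 result was not tested.

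The kinases did not pass the test in any comparison. Sphk2, the more abundant kinase, read 24.7, 23.1, 25.2, 28.6 and 24.0 CPM in CTL, 23.1, 25.8, 21.5 and 23.0 CPM in CPZ, and 19.8, 21.7, 21.4 and 18.0 CPM in RCV. The RCV libraries lay below all CTL libraries, a separation in either direction that 2.9% of all genes showed. The log2 difference there was -0.31 (95% interval -0.50 to -0.12, unadjusted p = 0.0032, adjusted p = 0.255), and in CPZ against CTL it was -0.11 (adjusted p = 0.543). Sphk2 shares exon bases with Dbp and Rpl18 on the opposite strand, which had 392 to 656 and 313 to 763 counts, and Rpl18 was itself 0.37 higher in CPZ than in CTL (adjusted p = 0.00287). Sphk1 had 6 to 20 counts in a library, with 0.816 to 2.93 CPM in CTL, 1.11 to 2.43 in CPZ and 1.03 to 2.38 in RCV. The groups overlapped throughout. Its 95% interval in CPZ against CTL, from -1.0 to 0.52 on the log2 scale, still allowed a change of 2-fold downward. Expressed in TPM, the ratio of Sgpl1 to the sum of both kinases was 1.21 ± 0.0894 (SD, 5 mice) in CTL, 2.40 ± 0.318 (SD, 4 mice) in CPZ and 2.00 ± 0.209 (SD, 4 mice) in RCV. Neither CPZ nor RCV overlapped CTL in this ratio, which rises with higher Sgpl1 and with lower kinases. Sgpl1 by itself overlapped between RCV and CTL in TPM. How often ratios of other genes separate the groups in this way was not computed. Mean TPM in CPZ was 1.71 times that of CTL for Sgpl1 and 0.868 times for Sphk2. In RCV it was 1.28 times for Sgpl1 and 0.77 times for Sphk2, and edgeR called neither gene there (adjusted p = 0.354 and 0.255).

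Spns2, the exporter, was lowest in CPZ. CTL libraries read 54.0, 46.5, 46.4, 45.7 and 39.8 CPM, CPZ libraries 34.3, 40.2, 34.1 and 40.3 CPM, and RCV libraries 44.7, 45.5, 61.0 and 49.0 CPM. In CPM CPZ lay below every RCV library and overlapped CTL through CTL 5. In TPM CPZ lay below every library of both groups, at 30.54 TPM at most beside 32.19 TPM at least in CTL. The log2 difference was -0.42 in CPZ against RCV (SE 0.109, adjusted p = 0.0273), -0.32 in CPZ against CTL (SE 0.103, adjusted p = 0.0624) and 0.10 in RCV against CTL (adjusted p = 0.978). Leaving out CPZ 1, CPZ 3, RCV 3 or RCV 4 lost the first of these calls, with adjusted p of 0.0532 to 0.108, as did TPM with limma, with adjusted p of 0.0566 to 0.0986. Leaving out CTL 5 or RCV 3 made the second a call, with adjusted p of 0.04 and 0.0269. The TPM ratio of Sgpl1 to Spns2 was 0.483 to 0.834 in CTL, 1.23 to 1.89 in CPZ and 0.753 to 0.89 in RCV, so that the lyase exceeded the exporter only in CPZ. Exons of Spns2 overlap those of Mybbp1a on the opposite strand, with 284 to 608 counts.

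Around these genes, genes of related sphingolipid and signalling pathways were counted by list. Of 10 further genes of S1P turnover and transport 9 were tested, and edgeR called none in any comparison. Of all genes it called 10.2% in CPZ against CTL, 0.374% in RCV against CTL and 7.01% in CPZ against RCV. Among 23 genes of ceramide and sphingosine synthesis 20 were tested and 3 were called in CPZ against CTL, a share near the 10.2% of all genes. The ceramidase Asah1, which releases sphingosine in the lysosome, was 0.52 higher (adjusted p = 0.000741), the ceramide kinase Cerk was 0.34 higher (adjusted p = 0.0223) and the ceramide synthase Cers4 fell by 0.22 on the log2 scale (adjusted p = 0.0346). In CPZ against RCV, Cers2 (-0.44, adjusted p = 0.044) and Cers4 (-0.24, adjusted p = 0.0383) were lower. Acer1 was at 0 in all libraries.

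All 12 genes of sphingomyelin and glycosphingolipid metabolism were tested. In CPZ against CTL 3 were called as lower, where 2.5% of all genes were. The 3 lower genes make the galactolipids of myelin: the fatty acid hydroxylase Fa2h (-1.96, adjusted p = 0.00201), the galactosyltransferase Ugt8a (-1.42, adjusted p = 0.0027) and the sulfotransferase Gal3st1 (-0.73, adjusted p = 0.00108). Against RCV the same lower genes were called, Fa2h at -1.91, Ugt8a at -1.43 and Gal3st1 at -0.71, where 1.88% of all genes were called as lower. None was called in RCV against CTL, where 0.374% of all genes were.

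Of 16 genes that couple S1P receptors to the cell, 15 were tested and 5 were called in CPZ against CTL, all higher, where 7.66% of all genes were called as higher. The 4 with the lowest adjusted p were the G protein subunits Gna13 (0.37, adjusted p = 0.00121) and Gnai3 (0.37, adjusted p = 0.00161), the GTPase Rhoa (0.26, adjusted p = 0.00513) and the arrestin Arrb2 (0.31, adjusted p = 0.0196). Gna13, Gnai3 and Rhoa were also higher in CPZ against RCV, by 0.25, 0.33 and 0.24. The list's median was -0.05, close to that of all genes. Of 12 receptors and enzymes for lysophosphatidic acid and related lipids 10 were tested. Lpar1, a lysophosphatidic acid receptor of oligodendrocytes, was lower in CPZ than in CTL (-1.07, adjusted p = 0.000348) and in RCV (-1.24, adjusted p = 0.000514). The cannabinoid receptor Cnr2 read 2.80 ± 1.27 CPM (SD, n = 4) in CPZ beside 0.307 ± 0.146 CPM (SD, n = 5) among CTL mice. It reached the filter in 4 CPZ, 0 CTL and 1 RCV libraries, so it was tested only because of its CPZ level and its call is not counted. None of these genes was called in RCV against CTL, where 0.374% of all genes were.

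For each member called in any comparison, the 3 genes with the most similar profile were found by the root mean square (RMS) difference in log2-CPM, centred on CTL, over the 13 libraries. The nearest genes lie below the median of all genes by construction, so that the medians given here only show the scale. Nearest to S1pr5 were the myelin gene Opalin (0.244), Fa2h (0.275) and the integrin Itgb4 (0.293), where the median gene was at 1.21. Those nearest to S1pr3 were the lysosomal enzyme Naglu (0.238), Tor3a (0.272) and the selectin ligand Selplg (0.28), beside a median of 0.957. Sgpl1 was closest to the mannosidase Man2b2 (0.115), Pabpc1 (0.138) and Pdpn (0.14), with a median of 0.569. For S1pr2 they were Gadd45b (0.174), Cebpg (0.221) and Rab3il1 (0.245), for S1pr1 Arhgdia (0.091), Aatf (0.105) and Slc35f6 (0.109), and for Spns2 Clasrp (0.108), Deaf1 (0.118) and Egfem1 (0.12), with medians of 0.634, 0.279 and 0.306.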

How the data were processed

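The 13 libraries were made with the Kapa mRNA HyperPrep kit and read as paired 50-base reads on a HiSeq2500. The authors deposited estimated counts per gene, not scaled to depth, a table of TPM values, which the authors scaled by gene length and library, and a gene annotation. The submitters' processing notes name STAR, RSEM and mm10, and the methods name the RNASequest pipeline. Tool versions and the strand setting of counting: not given in the sources used here. Estimated counts were rounded, since 4.45% were not whole, and 92 spike-in entries held no counts.

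Genes were filtered with filterByExpr, normalized by TMM and fitted with robust dispersions for the quasi-likelihood test of edgeR 4.0.16 in R 4.3.3, with 1 mean per group and Benjamini-Hochberg adjustment at 0.05. Standard errors and intervals of 95% came from this fit. Log2-CPM used a prior count of 2. Settings were varied with DESeq2 1.42.0, limma 3.58.1, TPM with pseudocounts of 1 or 0.1 and a minimum TPM of 1 in 4 libraries, other size factors, no filter, pairs of groups, a replicate block and each library left out. Code was tested on simulated counts. Figures were drawn with matplotlib 3.10.9 in Python 3.11.15. P values measure the spread between mice of 1 experiment. Marker and pathway lists came from general knowledge. All 9 members were named, with up to 4 called genes per list and comparison by lowest adjusted p and the 3 nearest genes per called member. The members and lists were chosen with earlier results of these data known, so the calls are not independent evidence. The result of 1 gene of the sphingomyelin and glycosphingolipid list is not reported here.

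Locations came from GENCODE M21, where Sphk1 matched by identifier without its version. Adrbk1 was matched through its synonym Grk2. RefSeq promoter windows were found for 8 of the 9 members, all but S1pr1. Samples were grouped by the treatment field, and titles of RCV libraries begin with "Veh".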

Additional observations from a re-analysis of the deposited data

Results flagged for a closer look

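Within each group of 4 or 5 mice, a library was marked when its gap to the nearest other library was large for the range of the group (Dixon's ratio at the 95% level). This marked 7 of 54 combinations of gene, group and unit, where chance marks about 1 in 20, and CPM and TPM of 1 gene are not independent. S1pr2 was at 2.76 TPM in CTL 3, where the next library was at 0.75, and at 5.16 TPM in RCV 4, where the next was at 1.03. Neither library was marked for S1pr2 in CPM. S1pr4 was low in CTL 2, at 0.15 CPM and 0.14 TPM, where the next libraries were at 0.734 CPM and 0.68 TPM, from 1 count. Sgpl1 was high in CTL 4 at 44.65 CPM, where the next was at 37.8, and in RCV 3 at 55.62 CPM, where the next was at 45.7. Spns2 was high in RCV 3 at 48.77 TPM, where the next was at 37.95.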

How the results depend on the processing

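Of 528 values of single members under the alternatives, 490 kept their direction and side of the threshold, 26 lost a call, 2 gained one and 10 changed sign. S1pr3 (1.44 to 1.79), S1pr5 (-2.40 to -1.82) and Sgpl1 (0.75 to 0.94) kept their calls in CPZ against CTL in all 22 alternatives.

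The changes of sign concerned differences near 0. S1pr5 in RCV against CTL was -0.018, -0.019 and -0.018 on TPM (pseudocount 1, pseudocount 0.1 and no filter), and -0.22 to 0.22 with 1 library left out (below 0 without CTL 4, -0.12, CTL 5, -0.033, RCV 1, -0.027, and RCV 2, -0.22). Spns2 in RCV against CTL was -0.0075 to 0.16 and Sphk1 in CPZ against RCV -0.017 to 0.50 with 1 library left out, with the sign changing without RCV 3 and without CPZ 2. The cause was not tested.

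Genes called in RCV against CTL numbered 56, and 123 by DESeq2, 12 by limma-voom, 22 on unfiltered TPM and 21 to 87 with 1 library left out. In CPZ against CTL 1522 were called, and 992 on unfiltered TPM. In CPZ against RCV 1050 were called, 599, 508 and 487 on TPM (pseudocount 1, 0.1 and no filter), and 632 to 1170 with 1 library left out. Members called in that comparison numbered 5, and 2 on each of the 3 TPM settings and 3 to 5 with 1 library left out, 3 being without CPZ 1.

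Replicate numbers did not meet the criterion for pairing (every pair over 0.1): deviations of same-numbered libraries correlated at -0.178 to 0.0469 in CPZ and CTL, -0.199 to 0.136 in RCV and CTL (3 of 4 pairs over 0.1), and -0.131 to -0.0351 in CPZ and RCV. With the replicate number as a block, 3 members were called in CPZ against RCV (S1pr1 had an adjusted p of 0.0622 and Spns2 of 0.0668), S1pr2 in CPZ against CTL had an adjusted p of 0.088, and S1pr5 in RCV against CTL was -0.042. Depth limited S1pr2, S1pr4 and Sphk1, with at most 37, 7 and 20 counts in a library.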

Other observations

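S1pr2 and S1pr5 both lie on chromosome 9, on the minus strand, with 266130 bases between their gene bodies in mm10, and were called in opposite directions in CPZ against CTL (0.95 and -2.02 on the log2 scale). Of 6 markers of oligodendrocyte precursors 1 was called higher in CPZ against CTL, where 7.66% of all genes were. The 6 summed to 200 to 257 CPM in CTL, 221 to 248 in CPZ and 225 to 258 in RCV. These ranges overlapped in all groups, while for S1pr5 the CPZ range lay below those of CTL and RCV. Of 8 neuronal and 6 mural cell markers none was called in any comparison. Summed choroid plexus markers ranged from 12.5 to 2732 CPM over the libraries with no call in any comparison. Of all genes, 10.2% were called in CPZ against CTL, 0.374% in RCV against CTL and 7.01% in CPZ against RCV.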
